A study of Parasteatoda tepidariorum with 2 samples.

Results

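*Pt-AP2-A* (LOC107452006) is a gene of the spider *Parasteatoda tepidariorum* that encodes a transcription factor of the AP-2 family. It was followed here as 1 gene of the 20315 genes listed in at least 1 of the 3 filtered count tables, across germ layers, body regions and stages. It was chosen by its identifier and not by a threshold. AP-2 proteins bind DNA as dimers. In vertebrates they act in the epidermis and neural crest, and in *Drosophila* an AP-2 gene is needed for leg joints and parts of the nervous system. Spider embryos of these stages are forming a germ band, whose posterior part gives rise to the opisthosoma, the posterior body division of a spider. Product names were taken from the study's lists of cluster markers and of genes with specific axis patterns, for 1329 genes. Among these, LOC107452006 was the only 1 named as a transcription factor AP-2. Genes outside those lists were not searched, so other AP-2 genes may exist. In the fish and frog embryo, KCTD15 proteins are known as inhibitors of AP-2, and 1 gene of the same lists, LOC107448951 (kctd15-like), carried that name.

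Stage-7_nucleus (nuclei of 20 embryos) and stage-7_cell (dissociated cells of 15 embryos) were made from untreated wild-type whole embryos at stage 7, the early germ band. The embryos of each experiment were siblings of 1 egg sac, and those used for cells were slightly younger than those used for nuclei. The late stage-5_nucleus library, from nuclei of an earlier stage of the same species, was reused by the study. Each condition had 1 library, so no difference below has a replicate check, and every interval is a 95% interval for counting error only.

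The filtered tables held 6239 stage-7 nuclei with a median of 10452 molecules each, 865 cells with a median of 9159, and 4820 late stage-5 nuclei with a median of 5413. The libraries shared between 5 and 33 barcodes pairwise, as filtered. Molecules of every class marker were found in each library, the fewest being 6 of *Pt-tlx* in cells, and clusters that met the naming rule for mesoderm and endoderm were present in all 3.

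*Pt-AP2-A* was most abundant in late stage-5 nuclei and least abundant in stage-7 cells. A level here is the number of *Pt-AP2-A* molecules per 10000 molecules of all genes. All filtered barcodes were summed, among them nuclei of low-count clusters that the paper left out as possible pseudoclusters. In late stage-5_nucleus there were 10400 *Pt-AP2-A* molecules, a level of 3.88 (3.81–3.96), and 43.4% of nuclei had at least 1. In stage-7_nucleus there were 9878 molecules, a level of 1.44 (1.41–1.47), in 25.8% of nuclei. In stage-7_cell there were 230 molecules, a level of 0.266 (0.233–0.303), in 10.6% of cells. The 3 intervals did not overlap. After thinning every barcode to 3000 molecules the shares were 37.8%, 15.3% and 5.32%, in the same order.

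The stage-7 level in nuclei was 0.370 times the late stage-5 level (0.360–0.381), or 2.70-fold lower (2.63–2.78). Among 10876 genes with at least 100 molecules in both nucleus libraries the median log2 ratio was −0.58, and 9.30% of these genes had a lower ratio than *Pt-AP2-A*, whose log2 ratio was −1.43. As background, 27.9% of the genes were at least 2-fold lower and 9.20% at least 2-fold higher in stage-7 nuclei. Several regulators of posterior development moved the other way. *Pt-eve* and *Pt-caudal*, homeobox genes known for posterior patterning in arthropods, were 16.2-fold (13.7–19.2) and 26.2-fold (20.6–34.0) higher at stage 7. *Pt-caudal* had only 66 molecules at late stage 5, under the minimum of 100, so it was not among the 10876 genes. The panel held 11 posterior regulators, a list chosen with earlier results of these data known. Of the 10 with enough molecules, 6 were at least 2-fold higher and 1, *Pt-prd2*, at least 2-fold lower, with a median ratio of 2.74.

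Within stage 7, the level in nuclei was 5.40-fold that in cells (4.74–6.18). Over 6081 genes the median log2 ratio was 0.39, and 1.86% of genes had a higher ratio than *Pt-AP2-A*. As background, 25.0% of the genes were at least 2-fold higher and 2.52% at least 2-fold lower in nuclei. Neither *Pt-eve* (1.77-fold, 1.61–1.96) nor *Pt-caudal* (1.97-fold, 1.75–2.23) had as high a ratio, whereas the Hox gene *Pt-AbdB-B* was 8.45-fold higher in nuclei (6.43–11.3) and *Pt-wnt11_2*, a Wnt ligand gene, 12.7-fold (9.20–17.9). The last 2 had only 52 and 38 molecules in cells, under the minimum of 100, so neither was among the 6081 genes. The authors counted intron reads for nuclei and not for cells, and the preparation and the age of the embryos differed as well, so these cannot be told apart.

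The molecules were concentrated in a minority of barcodes. The tenth of barcodes with the most *Pt-AP2-A* held 84.4% of its molecules in stage-7_nucleus, 97.4% in stage-7_cell and 55.9% in late stage-5_nucleus. Among stage-7 nuclei, 4629 had none, 614 had 1, 647 had 2 to 9 and 349 had 10 or more, up to 63. In late stage-5 nuclei the numbers were 2728, 513, 1268 and 311, up to 37. Among cells only 3 had 10 or more, and the most in any cell was 15.

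In stage-7 nuclei *Pt-AP2-A* belonged mainly to 1 ectodermal cluster. To keep the gene from defining its own cluster, LOC107452006 was removed before the nuclei were clustered. Cluster 1 (899 nuclei), called posterior ectoderm-like from *Pt-eve*, *Pt-caudal*, *Pt-prd2* and *Pt-asl-H*, had a level of 8.62 (8.44–8.81), and 88.5% of its nuclei had a molecule (72.5% after each nucleus was thinned to 3000 molecules). It held 85.1% of all *Pt-AP2-A* molecules of the library. The next highest, cluster 0, whose leading genes included the Hox gene *Pt-scr-A*, *Pt-Notum* and *Pt-gas1*, was at 0.530 (0.489–0.574).

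The clusters named for other germ layers were low. The mesoderm-like cluster was at 0.0930 (0.0661–0.127; median depth 11436 molecules), with a molecule in 7.87% of nuclei, and the endoderm-like cluster at 0.119 (0.0840–0.163; median depth 13802), with a molecule in 10.5%. The head ectoderm-like cluster was at 0.105 (0.0835–0.130), with a molecule in 9.36%. These 3 intervals overlapped, so the levels were not distinguishable at this depth, and the source of these molecules was not tested. Cluster 6 (364 nuclei) held all 4 mesoderm markers at 2-fold or more over the other nuclei, and *Pt-eve* and *Pt-prd2* as well, but was left unnamed because its 10 leading genes included *Pt-RTP-B*, a marker of another class. It was at 0.151 (0.116–0.194), with a molecule in 12.9% of nuclei. The extraembryonic-like cluster was above them, at 0.369 (0.315–0.430). In a finer clustering, a part of the extraembryonic-like nuclei led by *Pt-tlx* among other genes (cluster 24, 72 nuclei) reached 1.20 (0.967–1.47), and 45.8% of its nuclei had a molecule (27.8% after thinning).

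The finer clustering divided the posterior nuclei into groups of unequal level. Cluster 7 (267 nuclei), with *Pt-eve*, *Pt-asl-H* and *Pt-AbdB-B* among its leading genes, was at 11.4 (11.0–11.8), and cluster 9 (254 nuclei), led by *Pt-wnt11_2*, was at 11.2 (10.8–11.6). Those intervals overlapped. Cluster 3 (354 nuclei), with LOC107447499, *Pt-prd2* and *Pt-caudal* among its leading genes, was lower, at 4.69 (4.47–4.91). Clusters 7 and 9 held 32.6% and 32.2% of the molecules.

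In cells, too, 1 cluster held most of the molecules. In stage-7_cell the posterior ectoderm-like cluster (104 cells) was at 2.03 (1.76–2.32), with a molecule in 64.4% of cells and 87.8% of all *Pt-AP2-A* molecules. The remaining 5 clusters lay between 0.00976 and 0.0962. Of the 2 mesoderm-like clusters, the one with 88 cells had a molecule in 9.09% and the one with 92 cells in 1.09%, against 3.66% in the endoderm-like cluster (82 cells, median depth 7359), which also held all 4 extraembryonic markers at 2-fold or more over the other cells, *Pt-tlx* from 1 molecule.

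In late stage-5 nuclei the gene was found at a high level in several clusters, whose number depends on the resolution (0.5 and 2.5 at stage 7, 1.4 here). Cluster 11 (221 nuclei), with LOC107447499, *Pt-asl-H* and *Pt-AbdB-B* among its leading genes, was highest at 14.1 (13.4–14.7). It was followed by cluster 6 (343 nuclei; *Pt-RTP-B* and the Notch ligand gene *Pt-Delta* among the leading genes) at 10.4 (9.98–10.9) and cluster 2 (515 nuclei; led by *Pt-scr-A*) at 9.75 (9.39–10.1), whose intervals overlapped. Cluster 4, led by *Pt-noggin-D* and *Pt-GATA1*, both in the extraembryonic marker list, was at 6.93 (6.57–7.31), clusters 3 and 5 were at 4.17 and 3.38, and cluster 10 at 1.50. None of these clusters met the rule for a class name. Cluster 6 held both markers of the central mesoderm, *Pt-Delta* and *Pt-RTP-B*, at 2-fold or more over the other nuclei, and a class of 2 markers cannot be named by a rule that needs 3. The low mesoderm value is therefore only that of the cluster marked by *Pt-twist*. This mesoderm-like cluster was at 0.757 (0.637–0.893), with a molecule in 21.0% of its nuclei, and the endoderm-like cluster at 0.424 (0.331–0.536), with a molecule in 11.7% (median depths 5367 and 7953).

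**Figure D1:**
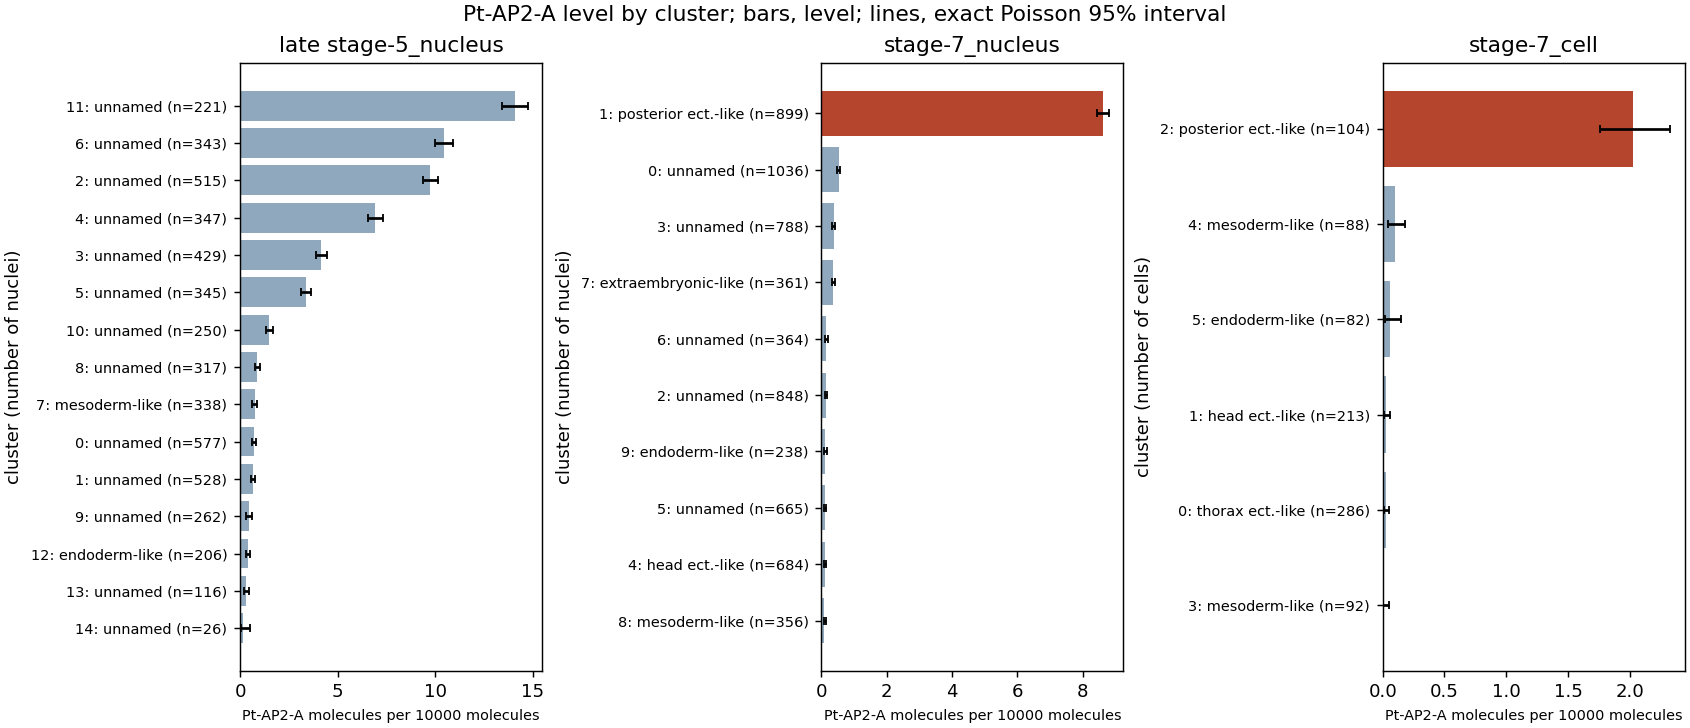
*Pt-AP2-A* level (molecules per 10000) in each cluster of the 3 libraries, clustered without the gene; bars give the level, lines the exact Poisson 95% interval, and red marks posterior ectoderm-like clusters. The highest cluster is at 8.62 in stage-7 nuclei and 2.03 in cells (resolution 0.5) and at 14.1 in late stage-5 nuclei (resolution 1.4), and the number of high clusters depends on the resolution.

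Along the embryo, *Pt-AP2-A* was a posterior gene at stage 7. The study placed part of the nuclei of each stage along reconstructed axes from position 1 (anterior) to 80 (posterior). Its list of positions for late stage 5 held 1140 nuclei, slightly more than its methods state, and all were used. The axes were built separately and with all genes. The study set their ends from *Pt-six3-1* and *Pt-prd2* at stage 7, and from *Pt-twist* and *Pt-asl-H* at late stage 5. That these genes lie at an axis end is therefore part of how the axes were made. The late stage-5 axis ran along the radius of the germ disc and included mesoderm nuclei, whereas the stage-7 axis was one of ectoderm. At late stage 5 the *Pt-twist* cluster lay at the peripheral end. The clusters that the paper aligned also included central mesoderm, listed toward the central end. Late stage-5 values near the posterior end may therefore mix ectoderm and mesoderm. Extents and levels by position therefore compare different sets of cells between the stages. Positions 1–33 of the stage-7 axis had a level of 0.0926 (0.0719–0.117), positions 28–58 one of 0.212 and positions 55–80 one of 7.07 (6.84–7.31), and in the last 74.5% of 415 nuclei had a molecule. When positions were assigned again from neighbours in a space without LOC107452006, the level at positions 55–80 was 6.92.

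Most of the stage-7 increase lay between positions 61 and 75. In stretches of 5 positions the *Pt-AP2-A* level stayed at or below 0.180 up to position 50, where it was 0.149 (0.0871–0.239) at 46–50, and was 0.399 (0.285–0.543) at 51–55 and 0.357 (0.241–0.509) at 56–60. It was then 3.82 (3.41–4.27) at 61–65, 5.14 (4.65–5.67) at 66–70 and 13.2 (12.4–14.0) at 71–75. In the other nuclei of the same clusters, placed by their neighbours (a check added after the data were seen), the increase was less abrupt, with 0.322 at 46–50, 0.512 at 51–55, 1.01 (0.846–1.20) at 56–60 and 3.37 at 61–65. In axis nuclei the last stretch, 76–80, was at 12.7 (12.1–13.4), an interval that overlapped that of 71–75. There all 106 nuclei had a molecule, with a median of 12 and a maximum of 62. The share with a molecule up to position 50 was between 7.14% and 14.1%, close to the 7.87% and 10.5% of the mesoderm-like and endoderm-like clusters.

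On the late stage-5 axis the *Pt-AP2-A* level was also highest at the posterior end. Positions 1–33 had a level of 0.792, positions 28–58 one of 2.11 and positions 55–80 one of 12.3 (11.8–12.8), with a molecule in 89.5% of 361 nuclei. It was 1.11 (0.762–1.55) at 46–50, 3.75 (3.15–4.42) at 51–55, 8.51 (7.47–9.66) at 56–60 and 16.6 (15.6–17.7) at 76–80. The smoothed profiles differed in extent, each on its own axis. The stage-7 profile was above the midpoint between its lowest and highest values from position 64 to the posterior end, 17 positions, with its maximum at 74, and the late stage-5 profile from position 54, 27 positions, with its maximum at 80.

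**Figure D2:**
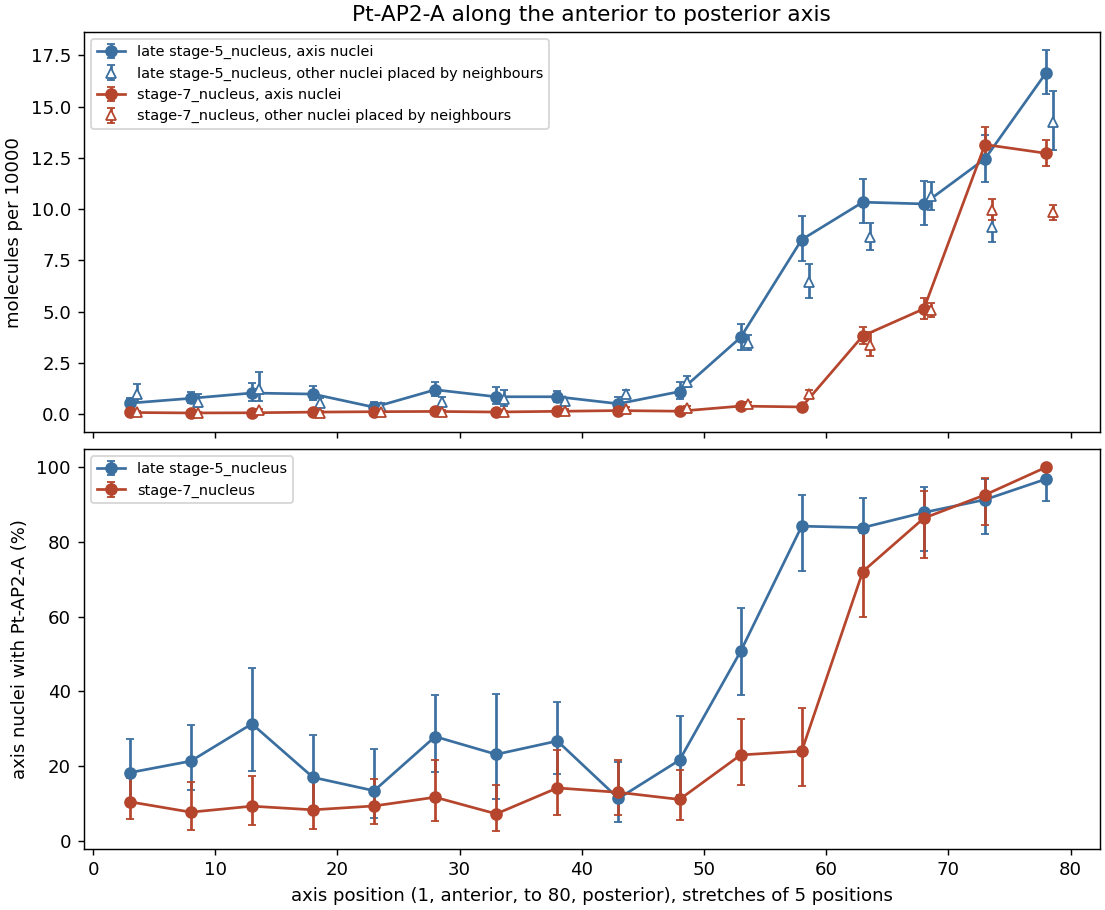
*Pt-AP2-A* by axis position in stretches of 5 positions; top, level (molecules per 10000) in axis nuclei (circles) and in other nuclei placed by their neighbours (triangles), with exact Poisson 95% intervals; bottom, percent of axis nuclei with a molecule, with exact binomial 95% intervals. The late stage-5 level is 3.75 at positions 51–55. The stage-7 level is 3.82 at positions 61–65, after a smaller increase at 51–55. The 2 axes were built separately, so their positions are not matched.

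At stage 7 the posterior stripes of *Pt-eve*, *Pt-caudal* and *Pt-asl-H* lay within the *Pt-AP2-A* domain and their anterior stripes at its edge. *Pt-eve* had peaks at positions 64 and 75 and *Pt-caudal* at 65 and 75, and *Pt-asl-H* at 63 and 75. Other posterior regulators differed, with peaks of *Pt-prd2* at 58, 70 and 80, of *Pt-hairy* at 17, 60 and 73 and of *Pt-runx-B* at 68 and 80. The posterior end of the stage-7 axis was set from *Pt-prd2*, so nothing is read from its peak at 80. A peak was counted only where the profile fell off on its sides by a set share of its range. By that rule the smoothed *Pt-AP2-A* profile had no separate peak, although its maximum, at 74, lay beside the posterior stripes at 75. LOC107447499 of the posterior panel was above its midpoint from 55 to 68 with its maximum at 60, and *Pt-scr-A* from 45 to 53. *Pt-AbdB-B* was above its midpoint from 68 to 80 with its maximum at 74, and *Pt-wnt11_2* from 75 to 80. At late stage 5, LOC107447499, *Pt-asl-H* and *Pt-AbdB-B* had their maxima at position 80, the position of the *Pt-AP2-A* maximum, but these covered 6, 5 and 2 positions against 27. The posterior end of that axis was set from *Pt-asl-H*, so nothing is read from the place of its maximum.

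**Figure D3:**
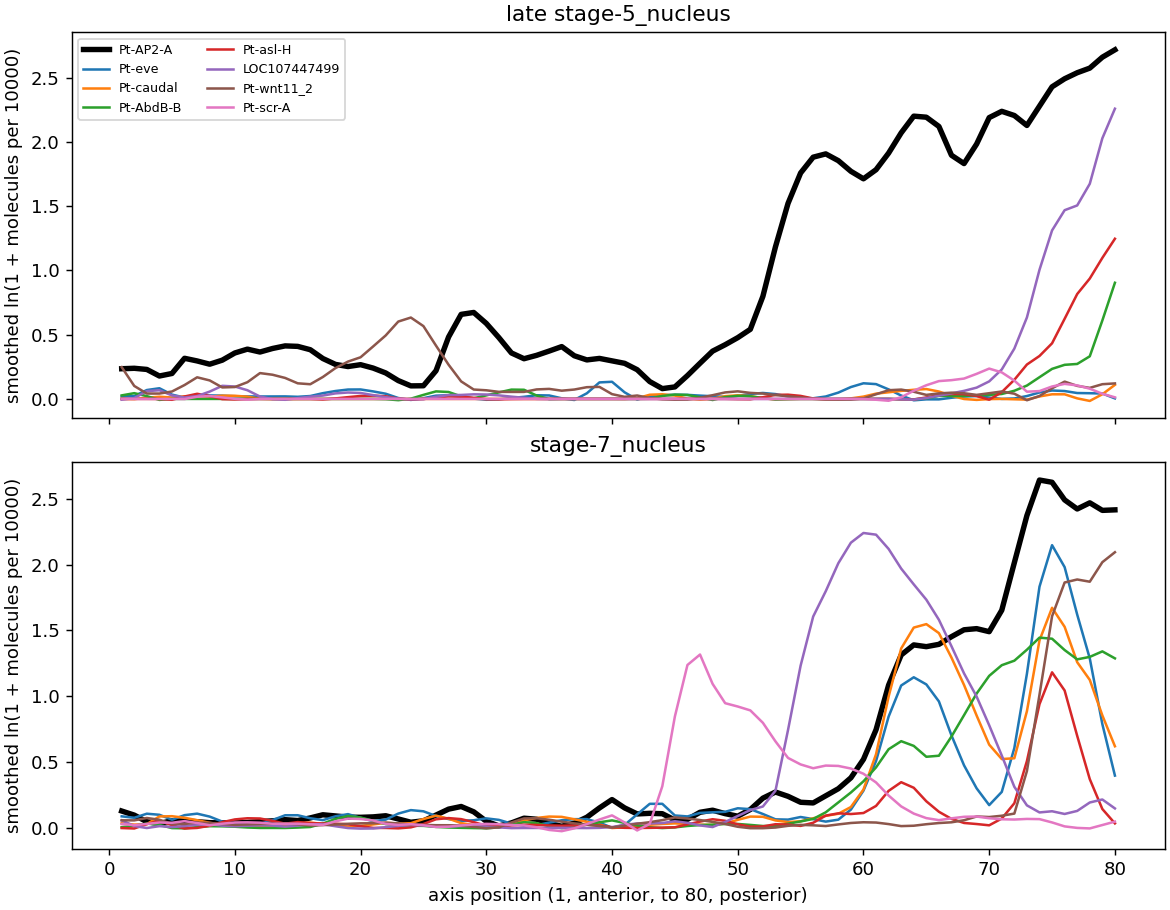
Smoothed profiles (loess of ln(1 + molecules per 10000)) of *Pt-AP2-A* (black) and 7 other genes against axis position in late stage-5 (top) and stage-7 nuclei (bottom); lines carry no error. At stage 7 the *Pt-eve* peak at 64 lies at the anterior edge of the *Pt-AP2-A* domain and the peak at 75 inside it, and at late stage 5 *Pt-eve* and *Pt-caudal* stay near 0.

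The genes whose axis pattern was most like that of *Pt-AP2-A* were found by the Pearson r of levels over 40 bins of 2 positions, among genes with at least 200 molecules in axis nuclei. The bins share a library and its depth, and r is a description. At stage 7, 7377 genes were ranked, with a median r of 0.0025 and a 95th percentile of 0.345. The highest was *big brother* (0.988), whose *Drosophila* namesake is the partner subunit of Runt proteins. Next came *Pt-AbdB-B* (0.970), LOC107450578, named as the histone methyltransferase SETD2 (0.963), LOC107438776, named as a C-Maf-inducing protein (0.961), and LOC107446742, named as a lysosomal thiol reductase (0.955). The list closed with *Pt-ftz* (0.934), the uncharacterised LOC107451770 (0.933), *Pt-BAMBI1* (0.924), an inhibitor of BMP and activin receptors in vertebrates, LOC107446208, named as ribosomal protein S6 kinase alpha-5 (0.922), and LOC107447905, named as a sal-like zinc finger protein (0.918). Ranked by Spearman rho, 3 of these 10 stayed among the first 10, and over single nuclei 5 did.

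The most opposite pattern at stage 7 was that of *Pt-sog* (r = −0.77), whose *Drosophila* namesake binds BMP ligands outside the cell. It was followed by LOC107451030, named as a proton channel (−0.76), LOC107437528 (−0.70), LOC107439560, named as the homeobox protein Meis2 (−0.68), and LOC107438760, named as a RING finger protein (−0.67). By role, 7 of 11 posterior regulators, a list chosen with earlier results of these data known, had an r of at least 0.5, as did 2.05% of all ranked genes, with a median of 0.764 and a range from −0.55 to 0.988. None of the 6 stripe genes (*Pt-hh*, *Pt-ptc*, *Pt-ci*, *Pt-msx1*, *Pt-noto1* and *Pt-fgf8*) and none of the 7 measured genes of the Hox and thorax list reached 0.5. That list is not all Hox genes: *Pt-AbdB-B*, near the top of the ranking, was counted with the posterior regulators. Of its 8 genes, 1 had too few molecules to be ranked. The smoothed profile of *Pt-antp-A*, a Hox gene of that list, was above its midpoint from position 69 to 80, with its maximum at 76. The r of kctd15-like was 0.638.

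The late stage-5 list was a different one. Among 5472 genes the highest were LOC107441660, named as an unconventional myosin (0.917), LOC107446080, named as cyclin-dependent kinase 20 (0.916), *Pt-gas1* (0.905), a Hedgehog co-receptor in vertebrates, and *Pt-echinoid* (0.898). LOC107447970, named as aurora kinase C (0.878), LOC107446115, named as the extracellular sulfatase Sulf-1 (0.870), *Pt-basonuclin-A* (0.869), *Pt-ftz* (0.868), *Pt-msx1* (0.838) and *Pt-zfp236* (0.838) followed. *Pt-ftz* was the only gene of both lists of 10, but 4 of the stage-7 list (*big brother*, *Pt-AbdB-B*, LOC107446742 and LOC107447905) had too few molecules at late stage 5 to be ranked there. Over single nuclei, 3 of the late stage-5 list stayed among the first 10. At stage 7, *Pt-echinoid* had an r of −0.25 and LOC107446115 one of −0.54.

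The levels of the listed genes at positions 55–80 differed between the stages. *Pt-AP2-A* itself was at 12.3 at late stage 5 and 7.07 at stage 7, a ratio of 0.576 (0.547–0.608). Each of the 10 genes most like it at stage 7 was higher at stage 7, against 36.6% of all genes ranked at that stage. The list was chosen for high posterior levels at stage 7, so nothing is read from this count. *big brother* was at 0.0461 at late stage 5, from 9 molecules, and 3.35 at stage 7, 72.7-fold higher (38.2–159), and *Pt-ftz* was at 1.60 and 11.2, 7.02-fold higher (6.26–7.90). *Pt-eve*, with 12 molecules at late stage 5, was 42.4-fold higher at stage 7 (24.2–82.2), and *Pt-caudal*, with 9, was 53.8-fold higher (28.3–118). *Pt-AP2-A* was thus at a high level at positions 55–80 at late stage 5, when few molecules of *big brother*, *Pt-eve* and *Pt-caudal* were counted. These late stage-5 nuclei may include central mesoderm. Of the 10 genes most like it at late stage 5, a list chosen on that stage, 8 were lower at stage 7, against 71.8% of all genes ranked at late stage 5. LOC107441660 was at 3.31 at stage 7, a ratio of 0.254 (0.239–0.271), whereas *Pt-gas1* (0.892, 0.752–1.06) had an interval that included 1 and *Pt-ftz* was higher.

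**Figure D4:**
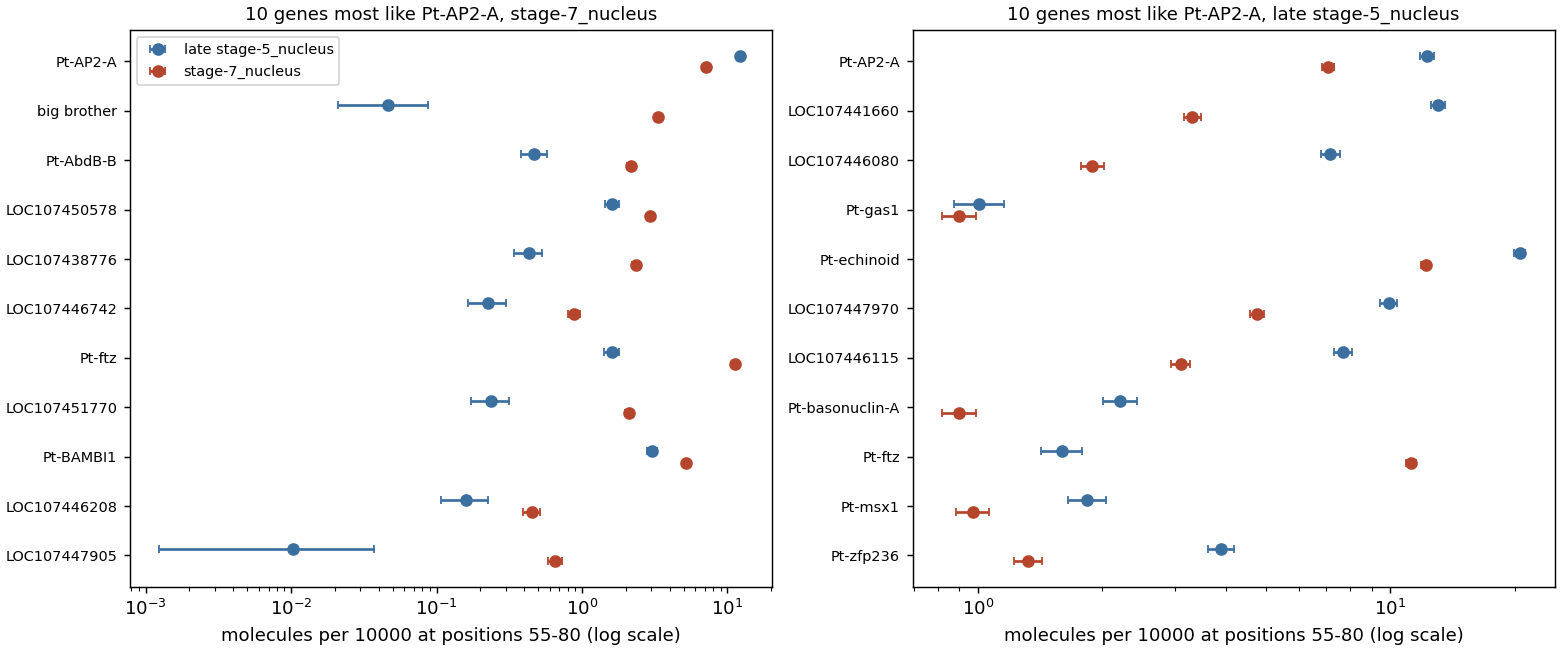
Level at positions 55–80 (molecules per 10000, log scale) of *Pt-AP2-A* and the 10 genes most like it at stage 7 (left) and at late stage 5 (right), in late stage-5 (blue) and stage-7 nuclei (red), with exact Poisson 95% intervals. All 10 genes on the left are higher at stage 7, against 36.6% of all genes ranked at that stage. That list was chosen for high posterior levels at stage 7, so nothing is read from the count. *big brother* is 72.7-fold higher at stage 7, and *Pt-AP2-A* is at 7.07 against 12.3 at late stage 5.

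In single stage-7 nuclei of positions 55–80, 309 had a *Pt-AP2-A* molecule and 106 did not, and the median depths of these nuclei were 10959 and 10928. *Pt-eve* was found in 65.7% (60.1–70.98%) of the nuclei with *Pt-AP2-A* and in 15.1% (8.88–23.4%) of those without. After thinning the shares were 45.5% and 14.6%. *Pt-caudal* was found in 73.5% and 23.6%, *Pt-runx-B*, a Runt family gene, in 56.3% and 14.2%, *big brother* in 84.8% and 30.2%, and *Pt-asl-H* in 36.2% and 4.72%. The intervals of each pair were apart.

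Other genes were found more often in the nuclei without *Pt-AP2-A*. *Pt-sog* was in 52.1% of the nuclei with it and 85.8% of those without. For *Pt-Notum*, a secreted Wnt inhibitor, the shares were 31.4% and 87.7%, for *Pt-gas1* 21.0% and 71.7%, for *Pt-scr-A* 11.0% and 53.8% and for LOC107447499 52.1% and 83.0%. kctd15-like differed less, with 191 of the 309 nuclei (56.1–67.3%) against 53 of the 106 (40.1–59.9%), intervals that overlapped. These nuclei run from the edge of the domain to the posterior end, so position moves with each share.

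Within positions 61–70 the differences were smaller. Of the nuclei there, 106 had a *Pt-AP2-A* molecule and 28 did not. *Pt-eve* was in 63.2% (53.3–72.4%) and 32.1% (15.9–52.4%), *big brother* in 85.8% (77.7–91.9%) and 46.4% (27.5–66.1%), and *Pt-caudal* in 82.1% (73.4–88.8%) and 53.6% (33.9–72.5%). LOC107447499 was in 90.6% and 82.1%, with overlapping intervals, and *Pt-sog* in 83.0% and 89.3%, also overlapping. The *Pt-AP2-A* level still rose within this window, from 2.69 at positions 61–62 to 5.59 at 63–64. Position may therefore move with these shares too.

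The stage-7 cells were a separate preparation. Of 865 cells, 92 had a *Pt-AP2-A* molecule and 773 did not. The posterior ectoderm-like cells held 87.8% of the *Pt-AP2-A* molecules, so cluster moves with each ratio over all cells. A link within the posterior cells is not read from those ratios. Over all cells, the level of *Pt-AbdB-B* was 32.8-fold higher in the cells with *Pt-AP2-A* (16.2–73.3) and that of the Hox gene *Pt-antp-A* 32.0-fold (15.8–71.7). *Pt-caudal* was 13.04-fold (10.2–16.7), *Pt-eve* 12.2-fold (10.0–15.0), *Pt-ftz* 9.53-fold (8.84–10.3) and *big brother* 8.48-fold higher (7.21–9.98). *Pt-sog* was lower, at 0.239 times the level of the other cells (0.156–0.350). kctd15-like was 3.25-fold higher (2.37–4.43), but within the 104 posterior ectoderm-like cells its ratio was 0.672 (0.433–1.06).

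At late stage 5, 323 nuclei of positions 55–80 had a *Pt-AP2-A* molecule and 38 did not. LOC107447499 was in 34.1% (28.9–39.5%) and 10.5% (2.94–24.8%), and *Pt-prd2* in 75.9% (70.8–80.4%) and 52.6% (35.8–69.0%). *Pt-eve*, *Pt-caudal*, *Pt-runx-B* and *big brother* were each in under 4% of the nuclei with *Pt-AP2-A*, so a difference for them was not detectable at this depth.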

How the data were processed

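The authors sequenced BD Rhapsody whole-transcriptome libraries, aligned reads with STAR 2.5.2b to Ptep_3.0 and filtered barcodes with Seurat 4.1.1. The deposited counts are molecules per gene and barcode, before and after the filter. Introns were counted for nuclei only. The stated limits (over 1500 genes and under 20000 molecules for cells, 2000 and 20000 for stage-7 nuclei, 1500 and 15000 for late stage-5 nuclei) were checked on the tables: they gave 865 of 865 cells, 6236 of 6239 and 4819 of 4820 nuclei. Normalized tables were not used. Doublets were limited only by the upper limit, and no caller was run.

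Here, levels were summed per library, cluster or position with exact Poisson intervals, shares had exact Clopper-Pearson intervals, and ratios had conditional exact intervals, all at 95%. Thinning kept 3000 molecules per barcode, which left out 223 late stage-5 nuclei and no other barcode. Clusters were made in Seurat 5.3.0 (R 4.3.3) without LOC107452006, from 2000 variable features and 50 PCs (45 at late stage 5), at resolutions 0.5 and 2.5 (stage 7) and 1.4 (late stage 5). A cluster was called X-like when at least 3 markers of 1 class were 2-fold over the other barcodes. That class also had to have the highest mean log2 fold of its markers. The 10 leading genes could hold no more markers of another class than of its own. A median depth low for the library barred a name only where the 10 leading genes held no marker of the class. Axis positions came from the study's supplementary tables, and loess used a span of 0.05. With 1 library per condition no test was run. The ranking by r was tested on simulated data. The named genes were *Pt-AP2-A*, the 10 highest and 5 lowest by r at stage 7, the 10 highest at late stage 5, the markers and the panel. The gene, the markers and the lists were chosen with earlier results of these data known. Leading genes of clusters were named after their values were seen.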

Additional observations from a re-analysis of the deposited data

Results flagged for a closer look

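*Pt-AP2-A* molecules were also present in barcodes that the authors' filter removed, which enter no value of the report, and among the alternatives only the one over all barcodes. In stage-7_nucleus, 2182 removed nuclei held 2361 molecules, a level of 0.648 per 10000 (0.622–0.675), in 24.7% of them. In stage-7_cell, 152 removed barcodes held 78 molecules, a level of 0.292 (0.231–0.365), in 9.21%. In late stage-5_nucleus, 325 removed nuclei held 224 molecules, a level of 2.85 (2.49–3.24), in 22.8%. Of the removed stage-7 nuclei, 1152 were at or over the limit on molecules and 1030 at or under the limit on genes.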

How the results depend on the processing

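Of 47 alternative values of 14 results, 30 stayed within the 95% interval of the value given in the report, within 2 axis positions or within 1.5 times a count, and neither ratio changed direction. With all barcodes before the filter, the *Pt-AP2-A* level of stage-7_nucleus was 1.16, the stage ratio 0.302 and the ratio of nuclei to cells 4.27. Thinned to 3000 molecules, the level was 1.48 in stage-7_nucleus and 3.96 in late stage-5_nucleus, 7.69 at stage-7 positions 55–80 and 8.82 in the highest stage-7_nucleus cluster, and *Pt-eve* was in 45.5% of nuclei with *Pt-AP2-A*. Barcodes deeper than the median gave 1.31 in stage-7_nucleus and 3.77 in late stage-5_nucleus. The stage ratio over axis nuclei alone was 0.479, and over all axis nuclei *Pt-eve* was in 53.0% of those with *Pt-AP2-A*. The other nuclei of clusters along the axis, placed by their 15 nearest axis nuclei, an alternative chosen after seeing the data, gave 6.52 at positions 55–80. Of the 10 genes most like *Pt-AP2-A* at stage 7, Spearman rho kept 3 and single nuclei 5. At late stage 5, single nuclei kept 3 and a minimum of 1000 molecules 6. The cause of these differences was not tested. No paired analysis was possible because each condition had 1 library, and for the same reason no replicate could be left out.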

Other observations

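The *Pt-AP2-A* level was above 0 in every stretch of 5 positions of the late stage-5 axis. In the stretch of positions 26–30 it was 1.20 (0.896–1.56), against 0.344 (0.178–0.601) at positions 21–25. In the other nuclei placed by their neighbours the values were 0.613 (0.449–0.818) and 0.360 (0.220–0.557), with overlapping intervals.

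In the finer stage-7 clustering, cluster 28 held only 25 nuclei with *Pt-asl-H* and *Pt-wnt11_2* among its leading genes. Its *Pt-AP2-A* level was 6.67 (5.80–7.64), with a molecule in 92.0% of nuclei.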
